A study of Zea mays with 24 samples.

Results

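The microRNA156 (miR156) family of maize was followed through its precursor transcripts in 6 dissected parts of the seed. Members were the count rows named MIR156 that held at least 10 reads over the 24 libraries, which were 9 of the 11 MIR156 rows, among 154 microRNA loci and 41768 features in all. MIR156a stood just inside that limit with 10 reads, and MIR156k with 5 reads and MIR156g with 0 reads stood outside it. Of the 9 members, zma-MIR156b, zma-MIR156e, zma-MIR156f, zma-MIR156h, zma-MIR156i, zma-MIR156j and zma-MIR156l, written below without their maize prefix, passed the filter on low counts and were tested. MIR156a and MIR156d, with 10 and 41 reads, did not pass it and are described by their reads. On the embryo side, RNA came from embryo (Emb) and apical scutellum (AS). On the endosperm side it came from endosperm (End), from the endosperm adjacent to scutellum (EAS) and from the scutellar aleurone layer (SAL), and pericarp (Per) was the maternal coat of the grain. Each tissue had 4 libraries. Per the labels, all plants were wild type B73 without treatment, kept at day and night temperatures of 24 and 19 °C under 16 h light. The label of SAL replicate 1 omits the line's name. The labels give no seed age, and they do not say whether Emb samples held AS tissue or End samples held EAS and SAL tissue.

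In plants, miR156 pairs with transcripts of SPL transcription factors, also called SBP-box factors, and lowers their output. It is best known for holding plants in the juvenile phase, and it declines as microRNA172 (miR172) rises. In maize, its targets include teosinte glume architecture1 and tasselsheath4, and the Corngrass1 mutant overexpresses a tandem pair of MIR156 genes that includes MIR156b. The mature microRNA is cut from a hairpin inside a longer polyadenylated precursor. Reads here are from poly(A)-selected precursor RNA and do not measure the mature microRNA.

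The libraries held 15.1 M to 61.1 M reads in genes, where M stands for mega. The shallowest was SAL replicate 2, and every other library held at least 37.6 M reads. Levels are in CPM, the reads of a locus per M reads of the library after scaling with TMM factors, and 3 reads in a library equalled 0.0450 to 0.162 CPM. Locus lengths of the annotation behind the counts were not used here, so levels of a locus are compared between tissues and not with the level of another locus. The gene identifiers of the files could not be paired with names, with 0 of 41614 matched, so marker genes of the tissues and the SPL targets were not used here.

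The family divided into 3 patterns. MIR156e, MIR156h, MIR156i, MIR156l and MIR156f were high in both Emb and AS, MIR156b was high in Emb alone of these, and MIR156j was high in EAS and SAL. Summed over the 11 loci, MIR156 reads came to 19.4 ± 2.75 CPM in Emb (SD, n = 4), 13.8 ± 0.987 in AS, 8.20 ± 1.58 in EAS, 4.65 ± 0.846 in SAL, 0.789 ± 0.0897 in End and 0.351 ± 0.157 in Per. MIR156j supplied 99.4% ± 0.692 of the family's reads in EAS, 87.7% ± 2.70 in SAL, 81.5% ± 5.16 in End and 55.2% ± 23.4 in Per. MIR156e supplied 47.4% ± 1.42 of the family's reads in Emb and 57.3% ± 2.16 in AS. These sums and shares count reads without correction for locus length. They therefore do not rank tissues whose reads come from different loci. In bulk tissue, fewer expressing cells and less RNA per cell cannot be told apart.

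**Figure D1:**
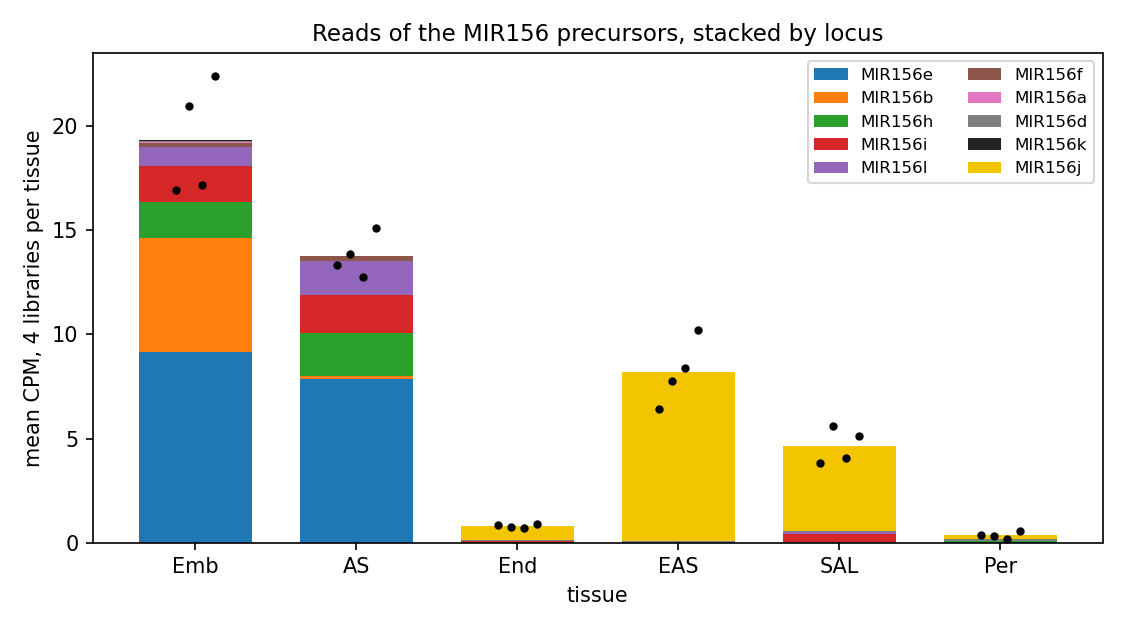
Stacked bars give the mean CPM of each MIR156 locus in the 6 tissues, and black dots give the summed CPM of each of the 4 libraries per tissue. EAS, at 8.20 CPM in sum, and SAL, at 4.65 CPM, are filled almost wholly by MIR156j, which is hardly visible in Emb and AS.

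MIR156e, the locus with the most reads of the family at 3579, marked the embryo side. Its level was 8.31, 10.03, 7.89 and 10.4 CPM in Emb replicates 1 to 4, and 7.54, 8.26, 7.45 and 8.25 CPM in AS. The 2 tissues overlapped, and the log2 fold change of AS over Emb, at -0.22 with an SE of 0.21, was not called (edgeR adjusted p = 0.447). All other tissues lay at the limit of detection, with 0 reads in End, 1 in EAS, 2 in SAL and 5 in Per over the 4 libraries. Of the 5 reads in Per, 4 were in replicate 1. AS exceeded Per, the next tissue in the order, 276-fold, which is 8.12 on the log2 scale with an SE of 0.38 (edgeR adjusted p = 1.03e-13), and AS and Per libraries did not overlap. Without Per replicate 1 the log2 fold change was 9.73. Among Per, SAL, EAS and End no order is given, because all but Per were at or under 3 reads.

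MIR156h and MIR156i followed the same plan. MIR156h was at 1.48, 1.59, 1.57 and 2.25 CPM in Emb and at 2.22, 2.09, 1.89 and 2.18 CPM in AS, which overlapped (edgeR adjusted p = 0.452). It fell 46.2-fold from Emb to SAL (edgeR adjusted p = 1.22e-10), where the libraries held 5, 0, 1 and 2 reads. Without SAL replicate 1 the log2 fold change of SAL over Emb went from -5.27 to -6.17. It had 5 reads in Per, 3 in EAS and 1 in End, and SAL, Per and EAS did not differ as neighbours (edgeR adjusted p = 0.428 and 0.647). MIR156i was at 1.66, 1.69, 1.38 and 2.11 CPM in Emb and at 1.85, 1.77, 1.59 and 2.06 CPM in AS, again overlapping (edgeR adjusted p = 0.844).

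MIR156i had a further site of expression, the scutellar aleurone layer. Its level there was 0.257, 0.433, 0.450 and 0.271 CPM, from 13, 8, 28 and 16 reads. All 4 SAL libraries lay below those of Emb and AS and above those of End, Per and EAS. The step from Emb to SAL was 4.85-fold (log2 fold change of SAL over Emb -2.30, SE 0.30, edgeR adjusted p = 9.09e-07). The step from SAL to End was 7.31-fold, or 2.74 on the log2 scale with an SE of 0.47 (edgeR adjusted p = 2.97e-05), End holding 1, 2, 1 and 3 reads. EAS held 0 reads, so SAL was at least 19.8-fold higher than EAS, taking 3 reads over the 4 EAS libraries as the limit (edgeR adjusted p = 8.54e-08). End and Per did not differ as neighbours (log2 fold change of Per over End -1.17, edgeR adjusted p = 0.167), but were called different without Per replicate 4 (-2.48, edgeR adjusted p = 0.0252). Per, with 0, 0, 1 and 3 reads, was called above EAS (at least 1.23-fold, edgeR adjusted p = 0.0320), a call lost without Per replicate 4 (adjusted p = 0.249 by edgeR), without any EAS replicate (0.0545 to 0.0594) and by DESeq2 (0.0878).

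In SAL, reads of MIR156i stood in another proportion to those of MIR156e and MIR156h than in Emb and AS. For each read of MIR156e there were 0.185 reads of MIR156i in Emb (95% exact interval 0.165 to 0.207) and 0.231 in AS (0.205 to 0.259). In SAL there were 32.5 reads of MIR156i for each read of MIR156e (8.64 to 274), from 65 and 2 reads. Set against MIR156h, the ratio was 0.997 in Emb (0.861 to 1.15), 0.868 in AS (0.752 to 1.00) and 8.12 in SAL (3.89 to 19.6). MIR156l, with 20 reads in SAL, also stood higher against MIR156e there, at 10 reads for each read of MIR156e (2.43 to 88.2), than in Emb (0.103, 0.0885 to 0.119) or AS (0.208, 0.184 to 0.234). Locus length is the same on each side of these comparisons and drops out. The intervals cover counting error only, and the ratios were not tested over libraries.

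MIR156l was the locus of the embryo group that was higher in AS in each library. It was at 0.956, 1.00, 0.838 and 0.972 CPM in Emb and at 1.41, 1.41, 1.61 and 2.12 CPM in AS, with no overlap. The difference of 1.74-fold, 0.79 on the log2 scale with an SE of 0.37, was not called (edgeR adjusted p = 0.0986). It was called by DESeq2 (log2 fold change 0.81, adjusted p = 0.0437), without SAL replicate 1 (0.79, edgeR adjusted p = 0.0473) and when Emb and AS were fitted alone (log2 fold change 0.77, edgeR adjusted p = 0.00521). SAL held 0, 1, 8 and 11 reads of MIR156l, so that replicates 3 and 4 carried nearly all of them. SAL was above EAS, which held 4 reads (log2 fold change 1.98, SE 0.82, edgeR adjusted p = 0.0316). This call was lost without SAL replicate 4 (log2 fold change 1.39, edgeR adjusted p = 0.171), without SAL replicate 3 (0.077 as adjusted p) and without EAS replicate 1, 2 or 4 (adjusted p of 0.0878, 0.0933 and 0.0568). Without EAS replicate 3, which held 3 of the 4 EAS reads, the log2 fold change was 3.33 (edgeR adjusted p = 0.00597). EAS and End did not differ (edgeR adjusted p = 0.672).

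MIR156f had the fewest reads of the tested loci, 88 in all. Emb libraries held 4, 16, 7 and 12 reads and AS libraries 11, 9, 7 and 17, which gave 0.175 ± 0.0822 and 0.222 ± 0.0878 CPM (SD, n = 4). These overlapped and were not called different (edgeR adjusted p = 0.608). End held 2 reads and SAL 3, and EAS and Per held 0. The ratio of Emb to End was 12.6 with an exact 95% counting interval of 3.26 to 108 (edgeR adjusted p = 0.000483).

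MIR156b, of the tandem pair behind Corngrass1, set Emb apart from AS. Emb libraries held 207, 419, 283 and 300 reads, or 4.30, 6.28, 5.15 and 6.21 CPM. AS libraries held 5, 6, 4 and 7 reads, or 0.102, 0.119, 0.0803 and 0.141 CPM. The Emb level was 49.6-fold the AS level, with no overlap (log2 fold change of AS over Emb -5.60, SE 0.29, edgeR adjusted p = 5.97e-09). AS in turn exceeded Per, where 1 read was found, by a read ratio of 21.7 (exact 95% counting interval 3.51 to 896, edgeR adjusted p = 9.61e-05), a call that held without Per replicate 3, which held that read (edgeR adjusted p = 9.82e-05). End, EAS and SAL held 0 reads of MIR156b. In AS against Emb, MIR156b was the locus of the 7 called 8-fold lower, where 3.35% of all features were. Without AS replicate 2, 2 loci were, MIR156j being the other. None was called 8-fold higher (0 by edgeR, with or without adjustment of p, and 0 by DESeq2), where 0.154% of all features were.

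The embryo loci therefore changed unequally between Emb and AS, which was tested on the log2 ratio of each locus to MIR156e in the same library. The ratio of MIR156b was -0.74 ± 0.15 in Emb and -5.92 ± 0.22 in AS (SD, n = 4), a difference of -5.17 on the log2 scale (exact permutation p = 0.0286, two-sided). The ratios of MIR156l, MIR156h and MIR156i moved the other way, by 0.97, 0.51 and 0.30 on the log2 scale, each with no overlap of libraries and an exact permutation p of 0.0286. That is the smallest p that 4 against 4 libraries can give, and it became 0.0429 after Benjamini-Hochberg adjustment over the 6 ratios computed. The ratios of MIR156f and MIR156j overlapped between the tissues and did not pass (exact permutation p = 0.171 and 0.0571). All 6 ratios share MIR156e, which averaged 9.16 CPM in Emb and 7.87 in AS, so they are not independent. The levels of MIR156l, MIR156h and MIR156i themselves were not called between AS and Emb (edgeR adjusted p = 0.0986, 0.452 and 0.844). As shares of MIR156 reads, MIR156l made up 4.92% ± 0.544 in Emb and 11.8% ± 1.80 in AS, and MIR156h 8.87% ± 1.03 and 15.2% ± 0.973.

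**Figure D2:**
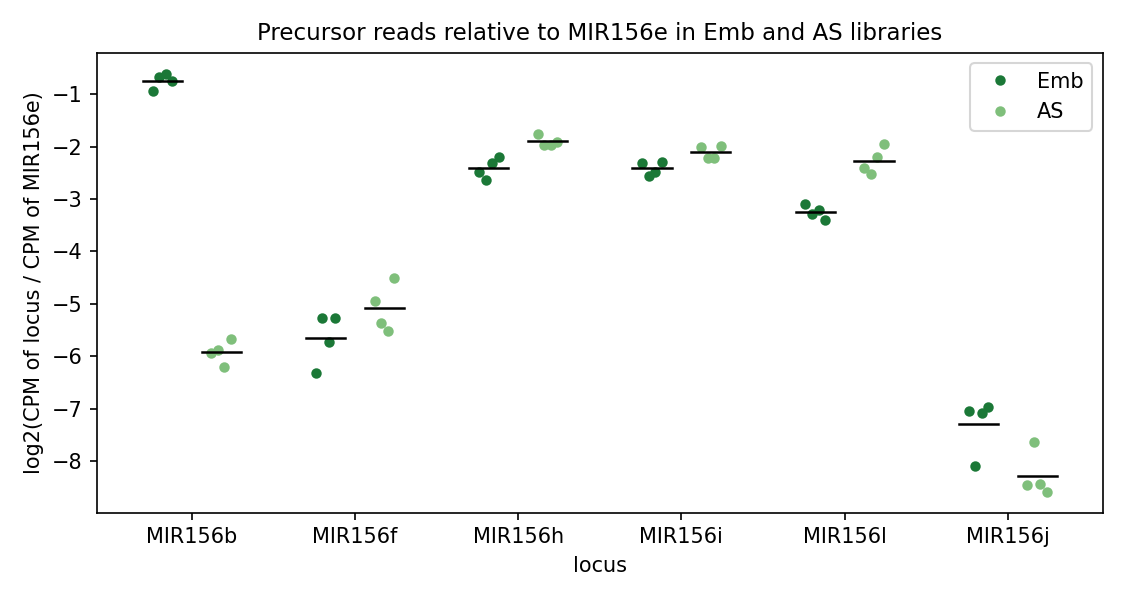
Each dot is the log2 ratio of the CPM of a locus to that of MIR156e in a library (prior count of 1), for 4 Emb and 4 AS libraries, and lines are means. MIR156b drops from -0.74 to -5.92 from Emb to AS, while MIR156h, MIR156i and MIR156l lie higher in every AS library than in any Emb library.

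MIR156j followed the reverse plan and was the locus of the endosperm side. EAS libraries were at 6.42, 7.76, 8.28 and 10.1 CPM, from 269, 353, 323 and 422 reads. SAL libraries were at 3.38, 4.93, 3.41 and 4.61 CPM, from 171, 91, 212 and 272 reads. End libraries were at 0.713, 0.553, 0.550 and 0.770 CPM. The EAS, SAL and End groups did not overlap with each other. Per libraries ranged from 0.0644 to 0.281 CPM, Emb libraries held 1 to 3 reads each, and AS held 1 read in all.

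Each neighbouring pair in this order differed. EAS was 1.99-fold above SAL (log2 fold change of SAL over EAS -1.01, SE 0.21, edgeR adjusted p = 0.000195), and SAL was 6.31-fold above End, or 2.64 on the log2 scale with an SE of 0.25 (edgeR adjusted p = 2.52e-09). End was 3.35-fold above Per (edgeR adjusted p = 3.14e-05), and Per was 4.98-fold above Emb (edgeR adjusted p = 9.66e-05). The last step, Emb over AS, rested on 8 reads against 1, a ratio of 7.29 with an exact 95% counting interval of 0.977 to 323. Its call (edgeR adjusted p = 0.0488) held under 11 of 29 alternatives and was lost under the others, with adjusted p of up to 0.135.

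**Figure D3:**
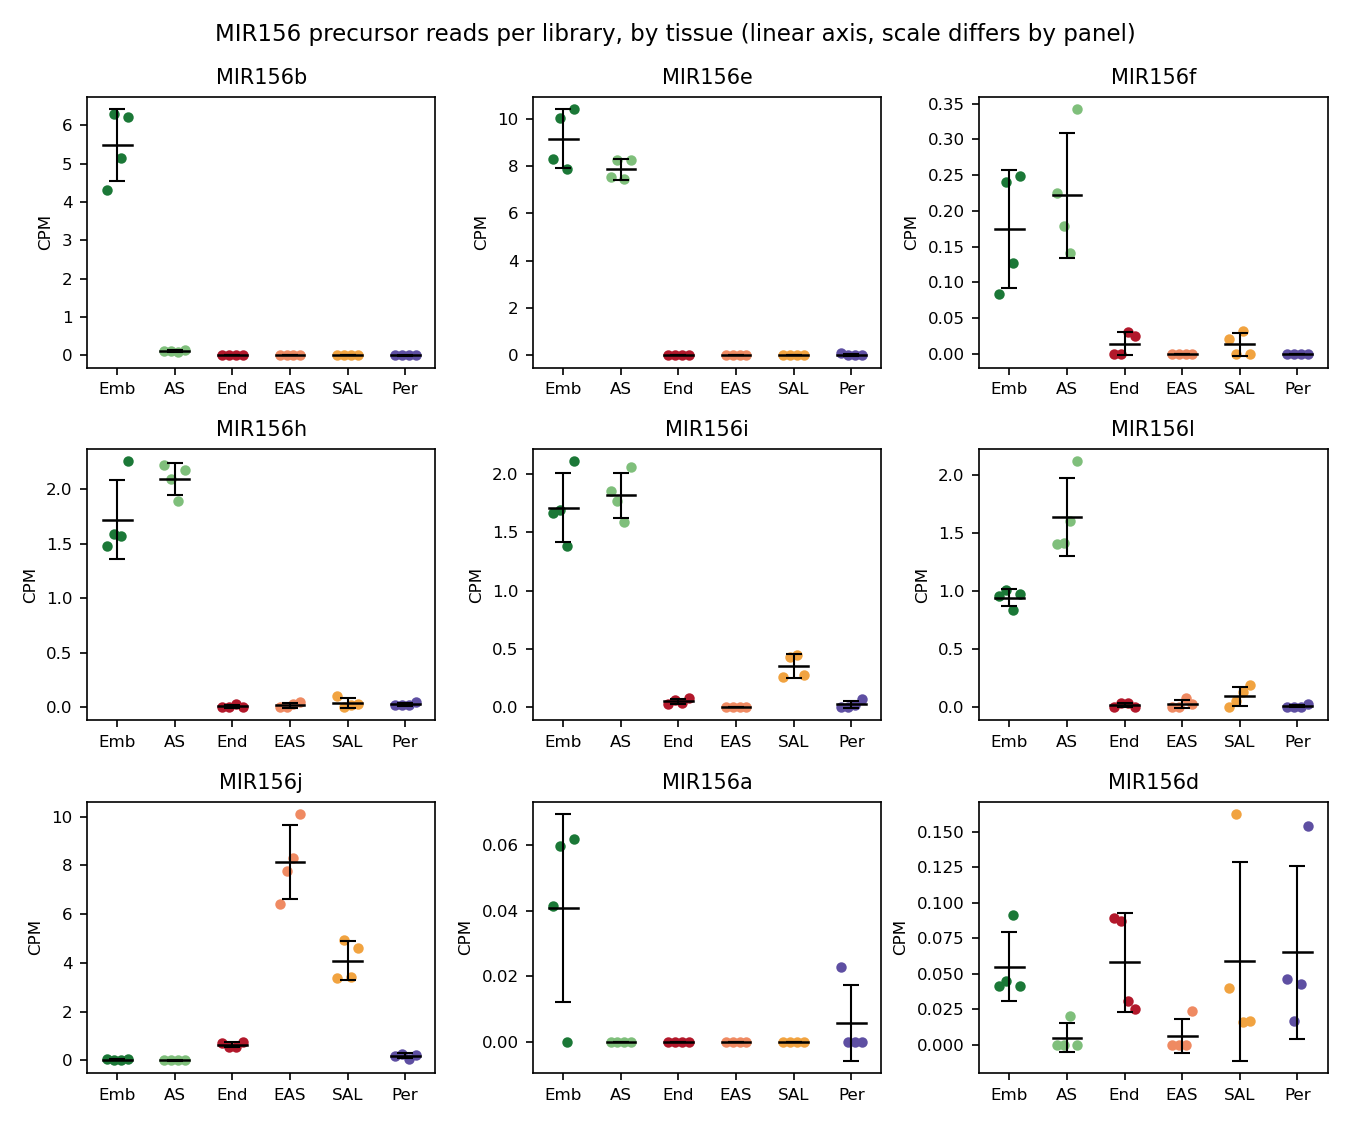
Dots are the CPM of each of the 9 members in each library, with the mean and SD of the 4 libraries per tissue, on linear axes that differ between panels. MIR156j peaks in EAS and SAL, MIR156b in Emb, and MIR156e, MIR156f, MIR156h, MIR156i and MIR156l in Emb and AS, with MIR156i also at 0.353 CPM on average in SAL.

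Below the filter on low counts were MIR156a, found mainly in Emb like MIR156b, and MIR156d, which differed from the patterns above. MIR156a had 2, 4, 0 and 3 reads in Emb, 1 read in Per and 0 reads elsewhere. MIR156d was found at 1 to 7 reads in each library of Emb, End, SAL and Per, with totals of 12, 8, 7 and 12 reads. AS and EAS held 1 read of MIR156d each. MIR156k had 4 reads in Emb replicate 3 and 1 in replicate 4, and 0 reads elsewhere. None of these was tested.

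Across the boundary where the apical scutellum faces the endosperm, different loci supplied the family's precursor reads. In EAS against AS, MIR156j was called 8-fold higher, as were 11.4% of all features tested, and the other 6 tested loci were called 8-fold lower, as were 12.4% of all features. A locus was called 8-fold where the fitted fold reached 8 and the adjusted p of edgeR was under 0.05. MIR156b, MIR156e, MIR156f, MIR156h and MIR156l passed the low-count filter only through Emb or AS libraries. MIR156j passed it without any Emb or AS library, and MIR156i without any EAS, End or Per library. Calls of each of these loci against tissues with few of its reads were therefore likely beforehand. The shares of all features do not allow for this, here or in the comparisons below. MIR156j reads were 1615-fold more frequent in EAS than in AS (exact 95% counting interval 289 to 63850, edgeR adjusted p = 1.15e-15). MIR156e reads were 1324-fold more frequent in AS (237 to 52350, edgeR adjusted p = 7.04e-14). Both ratios rest on 1 read in the lower tissue, in AS replicate 2 and EAS replicate 4, and both calls held without that library (edgeR adjusted p = 1.6e-13 and 1.01e-11). MIR156i, with 0 reads in EAS, was at least 102-fold higher in AS (edgeR adjusted p = 2.31e-11). For MIR156b, with 0 reads in EAS and 22 in AS, the bound was 6.21-fold, below the fitted fold.

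Embryo against endosperm gave the same division. Of the 7 tested loci, 6 were 8-fold higher in Emb by this rule, against 9.37% of all features, and MIR156j was called 8-fold lower, against 10.9%. Against Emb, Per had the same 6 loci called 8-fold lower, where 6.52% of all features were, and 0 called 8-fold higher (0 by edgeR without adjustment at 0.05, and 0 by DESeq2), where 15.0% of all features were. MIR156j was higher in Per than in Emb by 4.98-fold. These comparisons share the Emb libraries, and the limit from the low-count filter given above applies to them too.

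Within the endosperm samples, EAS against End had MIR156j called 8-fold higher, at 12.6-fold (log2 fold change 3.64, SE 0.25, edgeR adjusted p = 4.41e-11), against 1.55% of all features. MIR156i was called 8-fold lower, against 4.88% of all features, but its 7 reads in End and 0 in EAS bound the fold at 2.71 or more (edgeR adjusted p = 0.00272). Fitted on EAS and End alone, MIR156i did not pass the low-count filter. MIR156b, MIR156e, MIR156f and MIR156h were at or under 3 reads in both. For SAL against End, 0 loci were called 8-fold in either direction by edgeR, with or without adjustment of p, and 0 by DESeq2, against 5.00% of all features higher and 1.98% lower. The count of loci called 8-fold higher was 2 without End replicate 3, and 1 without End replicate 2, End replicate 4 or SAL replicate 1. At any fold, MIR156h, MIR156i, MIR156j and MIR156l differed, all higher in SAL, as did 45.3% of all features, while 0 were lower by edgeR or DESeq2, against 31.0%. The call of MIR156h (8 reads against 1, edgeR adjusted p = 0.0499) held under 5 of 29 alternatives and was lost under the others, among them the replicate block (edgeR adjusted p = 0.0602) and the fit without SAL replicate 1 (0.346 as adjusted p), which held 5 of its 8 reads. The call of MIR156l (20 reads against 2, edgeR adjusted p = 0.0157) was lost without SAL replicate 4 (adjusted p of 0.0838) and without End replicate 4 (0.0514).

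SAL against EAS had MIR156i called 8-fold higher, against 13.3% of all features, and 0 loci called 8-fold lower by edgeR, with or without adjustment of p, or by DESeq2, against 2.07%. Without the shallow SAL replicate 2, MIR156i kept its call (edgeR adjusted p = 2.8e-07). Without EAS replicate 3, 2 loci were called 8-fold higher. Pericarp against SAL had MIR156i, MIR156j and MIR156l called 8-fold lower, against 2.42% of all features, and 0 called 8-fold higher by edgeR, with or without adjustment of p, or by DESeq2, against 4.57%. MIR156j fell 21.2-fold from SAL to Per (a log2 change of -4.35 with an SE of 0.28, edgeR adjusted p = 8.94e-12) and MIR156i 16.1-fold (edgeR adjusted p = 1.18e-06). Without Per replicate 4, which held 3 of the 4 Per reads, the log2 fold change of MIR156i went from -3.90 to -5.21.

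The loci of miR172 and microRNA529 (miR529) were read beside the family. miR529 pairs with a site in SPL transcripts that overlaps the miR156 site, and miR172 targets AP2-like factors such as glossy15 of maize. MIR529 held 20 reads, with 0, 7, 2 and 7 in Emb and 0, 0, 3 and 1 in AS, and 0 elsewhere. Of the MIR172 loci, MIR172b held 1 read and MIR172d 0, and MIR172c held 14 reads in Emb, 29 in AS and 0 elsewhere. MIR172e was the tested MIR172 locus. Its SAL libraries were at 1.09, 0.921, 0.917 and 0.525 CPM, and Emb, AS and EAS held 0 reads of it. SAL was 8.93-fold above End, a log2 difference of 3.09 with an SE of 0.55 (edgeR adjusted p = 0.000177), and at least 48.4-fold above EAS (edgeR adjusted p = 2.5e-06). MIR172e and MIR156j were thus both high in SAL, whereas in EAS MIR156j was at its highest and MIR172e had 0 reads.

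Among the other tested microRNA loci, those with levels most like the members over the 24 libraries were found by Pearson correlation of log2 CPM. MIR160d, of a family that targets auxin response factors, came first for MIR156e (r = 0.987), MIR156h (0.974), MIR156f (0.940) and MIR156l (0.934). It was at 1.82 CPM in Emb and 2.72 in AS with 0 reads elsewhere. MIR390a (0.942) and MIR319a (0.929) came first for MIR156b, and both were likewise higher in Emb than in AS, at 2.60 against 0.201 CPM and 0.403 against 0 CPM on average. MIR171d (0.947) and MIR528a (0.944) were most like MIR156i. For MIR156j the closest were MIR159f, at r = 0.617 with a mean of 2.24 CPM in EAS, and MIR396e at 0.548. Unlike MIR156j, MIR159f was higher in Emb (0.609 CPM) than in SAL (0.339 CPM), and MIR396e was highest in Per (0.915 CPM). The 24 points fall into 6 tissues and many are at 0 reads, so these values describe tissue patterns and carry no test.

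Replicates 1, 2, 3 and 4 were labelled with harvests on 27 April, 1 May, 4 May and 18 May, apart from SAL replicate 4, with no date, and EAS replicate 3, whose label reads as day 5 of month 4. The year in the label of Emb replicate 1 also differs. In the 5 tissues where replicate 4 was dated, the 18 May library was above the 3 earlier ones in 10 of 15 combinations of locus and tissue with at least 10 reads. Over all tested features the same held for 27.5% of such combinations, from 20.7% in Emb and 25.1% in AS up to 38.9% in Per. Most of the 15 combinations lay in Emb or AS, so their mix of tissues was not that of all features. The 15 combinations also share 5 late libraries, and the difference from the share of all features was not tested. MIR156j in EAS was at 10.1 CPM on 18 May against 6.42 to 8.28 earlier, and MIR156h in Emb at 2.25 against 1.48 to 1.59. In a model with tissue, the log2 fold change of late over earlier was positive for all 7 tested loci, from 0.18 for MIR156e to 0.79 for MIR156f, as it was for 51.8% of all features. By edgeR 0 loci passed (adjusted p of 0.439 or more), and 0 did so without adjustment at 0.05 or by DESeq2, while 0.0192% of all features were called higher and 0.00383% lower. The late term rests on 1 library per tissue, and harvest day and other differences of that library cannot be told apart.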

How the data were processed

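Poly(A) RNA of 24 samples was sequenced as unstranded paired-end libraries, per the labels' protocols. TopHat2, Bowtie2 and the B73 RefGen_v4 build are named in the submitters' processing notes. The deposited values are raw counts of reads per gene from htseq, as their row names show, 1 file per library. Reads at several positions (7.81% to 16.2% of all records) were not counted, so near-identical MIR156 copies may be undercounted, and without strand an overlapping gene cannot be told apart. The 5 htseq summary rows, 13.7% to 23.3% of all records, stayed out of library sizes.

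Counts were tested with edgeR 4.0.16 in R 4.3.3 (TMM, filterByExpr with minimum count 10, quasi-likelihood test on tissue over 24 libraries). Benjamini-Hochberg adjustment ran over the 26543 features tested. The SE is the log2 fold change divided by the root of F. Where the lower tissue had 0 reads, the fold is a bound against 3 reads over its 4 libraries, and with 1 to 3 reads it is a read ratio with a 95% Clopper-Pearson interval, both for counting error only. Alternatives were RLE scaling, DESeq2 1.42.0, other filters, 2-tissue fits, a replicate block, other prior counts and leaving out each library.

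Members, lists and named loci were chosen with earlier results of these data known. The named loci were every MIR156 row, the MIR172 and MIR529 loci, and for each tested member the 2 microRNA loci most correlated with it. Same-numbered samples share a labelled harvest day, with the exceptions given. Their deviations correlated at 0.0891 on average (-0.0456 to 0.279 over 60 pairs), against -0.0298 for different numbers. The labels do not say that replicates came from separate plants, so a p-value covers the spread of these libraries, which may be technical. Replicates differed by more than sampling noise (chi-square per degree of freedom of at least 7.32).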

Additional observations from a re-analysis of the deposited data

Results flagged for a closer look

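Of 20 groups of 4 libraries in which each library was compared with its group, 2 held a library far from the others, and chance flags about 1 group in 20. MIR156d in Emb replicate 3 was at 0.0911 CPM, from 5 reads, where the other 3 Emb libraries held 2 or 3 reads. Counting error is large at so few reads, and the chance rate was not tested for counts this low. MIR156h in Emb replicate 4, the 18 May harvest, was at 2.25 CPM, where the other Emb libraries were at 1.48 to 1.59 CPM. The AS libraries of MIR156h ran from 1.89 to 2.22 CPM.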

How the results depend on the processing

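Of 88 locus comparisons with a test, 74 kept their direction and side of the threshold under every alternative run, and of 74 called, 68 did. In the other 17, both tissues were at or under 3 reads. Uncalled values that changed sign were MIR156e in Per against SAL without Per replicate 1 (-0.51 on the log2 scale), MIR156h there without SAL replicate 1 (0.24), MIR156i in AS against Emb without AS replicate 4 (-0.0012) or Emb replicate 3 (-0.0029), and MIR156l in EAS against End without EAS replicate 3 (-0.70). The highest or lowest values of these with another library left out were 1.59, -1.0, 0.20 and 1.16 in that order of loci.

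Fitted on EAS and End alone, 0 loci were called 8-fold lower, because MIR156i was not tested there. Such 2-tissue fits also gave 4 loci lower in EAS against AS and 5 higher in Emb against End. The main fit gave 6 for each. Among alternatives other than leaving out 1 library, 2-tissue fits included, the lowest counts were 5 lower in Per against Emb (main fit 6). They were 2 lower in Per against SAL (main fit 3). No locus tested in these comparisons lost its call. Leaving out 1 library gave 1 to 2 loci called 8-fold lower in AS against Emb, 0 to 2 higher in SAL against End, and 1 to 2 higher in SAL against EAS. The differences of AS minus Emb in the log2 ratio to MIR156e ran from -5.26 to -5.08 for MIR156b and 0.43 to 0.58 for MIR156h. They ran from 0.26 to 0.34 for MIR156i and 0.87 to 1.06 for MIR156l. Here 0.0571 is the smallest exact permutation p for 3 against 4. With the replicate block (4 same-numbered pairs) these differences stayed at -5.17, 0.51, 0.30 and 0.97, with an exact sign-flip p of 0.125, the smallest 4 pairs allow. In the tissue fits, the block ended the call of MIR156h in SAL against End and changed no other call.

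Without TMM, 3 of 54 mean levels moved by more than 1 SD: MIR156j to 0.484 CPM in End and 4.91 CPM in SAL, and MIR156l to 1.03 CPM in Emb. The median log2 fold change of all features was 0.24 in SAL against End and 0.14 in SAL against EAS. Depth limits the loci under 10 reads in a tissue, where absence cannot be shown.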
